A study of Sus scrofa with 13 samples.

Results

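This account covers 7 genes of the sodium pump, the sodium-proton exchangers and the aquaporins that have been linked to the filling of the blastocyst cavity: ATP1B1, ATP1B3, SLC9A3, AQP3, AQP8, AQP9 and AQP11. They were chosen by name as genes of ion and water transport, with earlier results of these data known. All 7 were found among the 28232 genes of the deposited table. RNA from pooled embryos of the pig, Sus scrofa, was sequenced in 13 libraries of 5 groups. Embryos grown in vivo gave 2 libraries of blastocysts and 2 of hatched blastocysts. In vitro fertilisation (IVF) gave 3 libraries each of 4-cell embryos, blastocysts and hatched blastocysts. The blastocyst still lies within the zona pellucida, the coat around the egg, and the hatched blastocyst has left it. No breed, age of the embryos in days, pool size or culture medium was given in the sources used here. Animals, embryo age and collection day cannot be told apart from origin, nor from hatching within an origin. It was not given either whether replicate libraries stem from separate animals or fertilisation rounds, so p-values reflect only how far these libraries spread, which may be technical.

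A blastocyst cavity forms when the outer epithelium of the embryo, the trophectoderm, pumps sodium into the space between the cells and water follows. The sodium pump (Na+/K+-ATPase) is built from a catalytic alpha subunit and a beta subunit that carries the pump to the membrane, and small FXYD proteins tune it. Sodium-proton exchangers let sodium enter the cells from outside, and aquaporins are channels that let water, and in some members glycerol and other small solutes, cross the membranes.

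Every library gave between 33259311 and 39273867 counts. Values are CPM, counts scaled to a fixed total over library sizes scaled by the TMM method of edgeR, and a floor of 3 counts lay between 0.0646 and 0.0903 CPM, depending on the library. Levels of different genes are set side by side only as FPKM, the authors' values per gene length. The labels call the material embryo cells without a lineage. Of 12 trophectoderm markers, 11 stood at 1 CPM or more in every blastocyst and hatched library, and their summed level was 21516 to 40936 CPM there against 126 to 638 CPM in the 4-cell libraries, where CDX2 and KRT18 were at 0. TP63 had a mean under 1 CPM in the 4 later groups and 5.45 CPM in 4-cell embryos. Of 10 oocyte and maternal markers, all 10 stood at 1 CPM or more in every 4-cell library, with a summed level of 14954 to 26128 CPM, and the sum was at most 18.7 CPM at the later stages. In pooled embryos, fewer cells of a type and less RNA per cell cannot be told apart. The 4-cell library 1 stood apart from the other 4-cell libraries, with a correlation of log2 CPM across genes of 0.884 and 0.879 with libraries 2 and 3, which had 0.954 with each other, and results against the 4-cell stage are given with and without it where it matters. One of the in vivo hatched libraries has counts with no replicate number in their column name. It is called unnumbered here, and its FPKM values were not used, so that FPKM values of in vivo hatched blastocysts are those of library 2 alone.

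The members differed in abundance by orders of magnitude, with ATP1B3 leading the pump subunits and AQP3 the aquaporins after the 4-cell stage. On the FPKM scale, ATP1B3 was the most abundant member in all 9 blastocyst and hatched libraries with FPKM values, at 649 to 1426 FPKM. AQP3 followed, at 166 to 556 FPKM in those libraries. AQP9 and AQP11 were far lower there, at 4.39 to 23.4 FPKM and 2.28 to 55.1 FPKM. ATP1B1 did not exceed 1.17 FPKM and SLC9A3 did not exceed 0.0818 FPKM in the same libraries, and AQP8 had 0 counts in all 13 libraries. The plot of members by library shows these levels on the CPM scale.

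**Figure D1:**
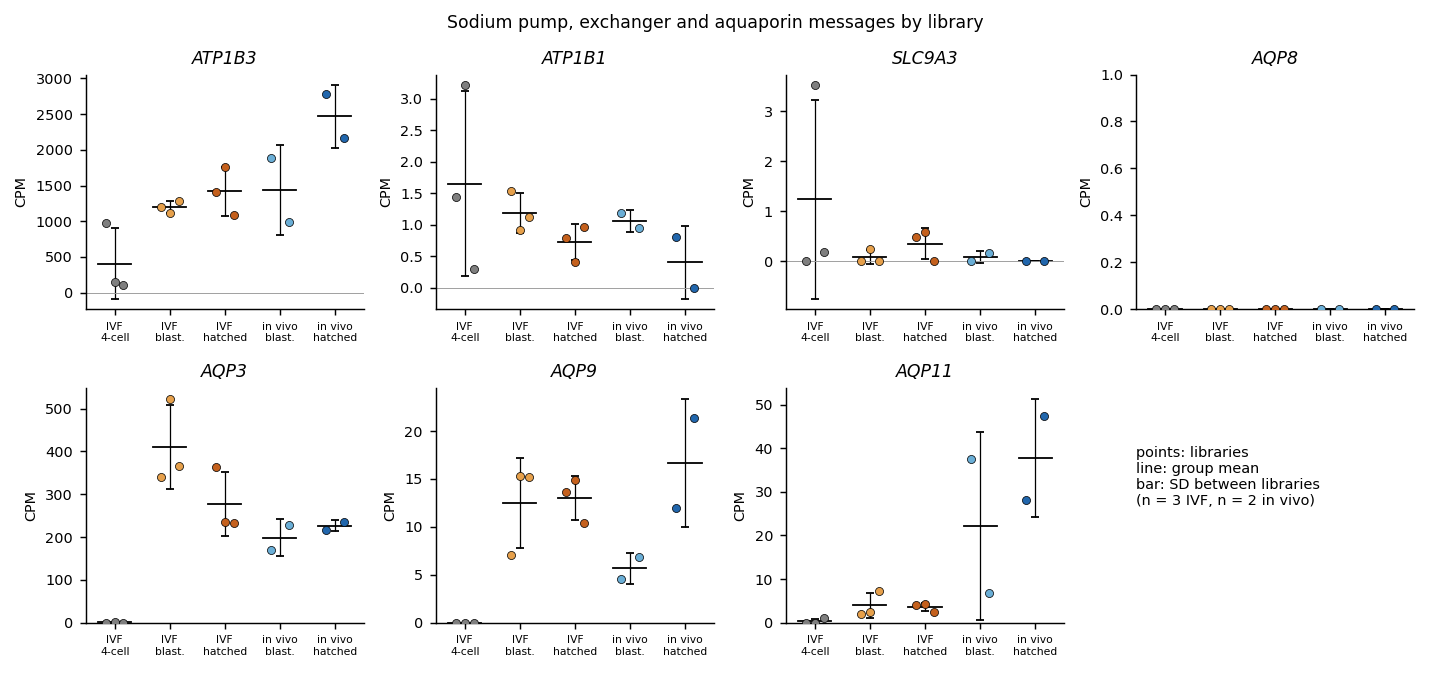
CPM (y axis) of the 7 members in each library (points) of the 5 groups (x axis), with the group mean (line) and the SD between libraries (bar, n = 3 for IVF groups and n = 2 for in vivo groups). ATP1B3 lay at 988 CPM or more in every blastocyst and hatched library, AQP3 and AQP9 were near or at 0 in 4-cell embryos, AQP11 was highest in vivo, and AQP8 was at 0 throughout.

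ATP1B3 (gene 100514493, Sscrofa11.1 chromosome 13, 82680442 to 82727052) encodes a beta subunit of the sodium pump. In 4-cell libraries 1, 2 and 3 it stood at 974, 143 and 104 CPM. In IVF blastocyst libraries 1, 2 and 3 it stood at 1193, 1114 and 1283 CPM, and in IVF hatched libraries 1, 2 and 3 at 1404, 1764 and 1087 CPM. In vivo blastocyst libraries 1 and 2 held 1879.5 and 988 CPM, and the in vivo hatched libraries held 2778 CPM (unnumbered) and 2160.2 CPM (library 2). Both in vivo hatched libraries lay above all 11 others, and all later libraries lay above the 3 of the 4-cell stage. Ordered by mean, the groups were in vivo hatched (2469 ± 437 CPM, SD, n = 2), in vivo blastocyst (1434 ± 631, n = 2), IVF hatched (1418 ± 339, n = 3), IVF blastocyst (1197 ± 84.3, n = 3) and 4-cell (407 ± 491, n = 3). The ranges of neighbours in this order were apart for the first pair and the last pair only.

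Of the pump's other beta subunit among the members, ATP1B1 (gene 396898, chromosome 4, 81912543 to 81937015), few counts were found. It had 67, 125 and 10 counts in the 4-cell libraries 1, 2 and 3, and 14 to 58 counts in the IVF blastocyst and hatched libraries. In vivo, it had 41 and 35 counts in blastocyst libraries 1 and 2, 27 counts in the unnumbered hatched library and 0 in hatched library 2. The highest level was 3.21 CPM, in 4-cell library 2, and the 5 groups overlapped between all neighbours in the order of their means. ATP1B3 made up 99.8% to 99.99% of the summed FPKM of the beta subunits in the 9 blastocyst and hatched libraries, and 97.3% to 99.6% in the 4-cell libraries.

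**Figure D2:**
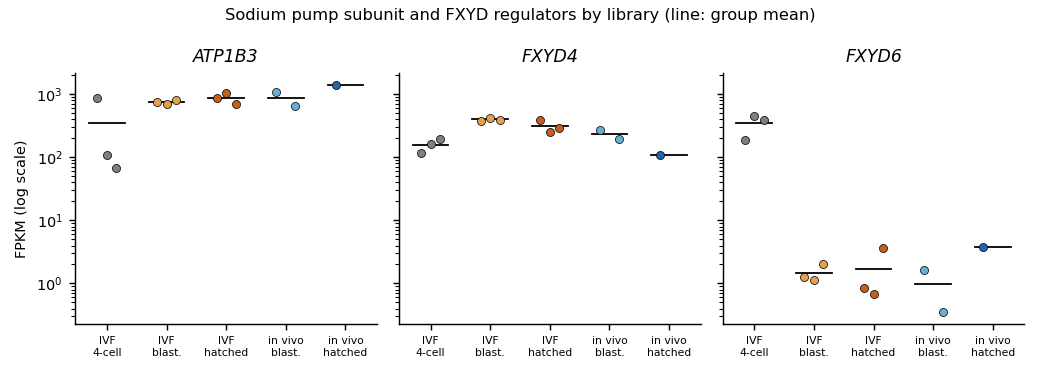
FPKM (log10-scaled y axis) of the pump subunit ATP1B3 and of the pump regulators FXYD4 and FXYD6 in each library (points) of the 5 groups (x axis), with the group mean (line). ATP1B3 stood at 649 to 1426 FPKM in the blastocyst and hatched libraries, and FXYD6 stood at 192 to 452 FPKM in 4-cell embryos and at 3.74 FPKM or less in the later libraries.

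SLC9A3 (gene 397358, chromosome 16, 79625555 to 79704084), the sodium-proton exchanger of absorbing epithelia such as kidney and gut, was at the edge of detection. Its counts were 0, 137 and 6 in 4-cell libraries 1, 2 and 3, 0, 9 and 0 in IVF blastocysts, and 16, 20 and 0 in IVF hatched blastocysts. In vivo, blastocysts had 0 and 6 counts and both hatched libraries had 0. Only 4-cell library 2 exceeded 1 CPM, at 3.52 CPM.

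AQP3 (gene 100126235, chromosome 10, 33045374 to 33050285), a channel for water and glycerol, was the leading aquaporin after the 4-cell stage. It had 0, 73 and 0 counts in 4-cell libraries 1, 2 and 3, so that only library 2, at 1.88 CPM, held any. IVF blastocyst libraries 1, 2 and 3 held 341, 523 and 366 CPM, and IVF hatched libraries 1, 2 and 3 held 364, 235 and 232 CPM. In vivo blastocyst libraries 1 and 2 held 169 and 229 CPM, and the in vivo hatched libraries held 217 CPM (unnumbered) and 236 CPM (library 2). All 3 IVF blastocyst libraries lay above all 4 in vivo libraries, whereas the IVF hatched libraries overlapped the in vivo ones. The means were 410.0 ± 98.3 CPM in IVF blastocysts (SD, n = 3), 277 ± 75.4 in IVF hatched (n = 3), 227 ± 13.2 in in vivo hatched (n = 2), 199 ± 42.6 in in vivo blastocysts (n = 2) and 0.625 ± 1.08 in 4-cell embryos (n = 3). Only the 4-cell range was apart from its neighbour in this order.

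AQP9 (gene 100127153, chromosome 1, 113798380 to 113848452) encodes a channel that passes water, glycerol and other small neutral solutes. It had 0 counts in all 3 of the 4-cell libraries. IVF blastocyst libraries 1, 2 and 3 held 7.05, 15.3 and 15.2 CPM, and IVF hatched libraries 1, 2 and 3 held 13.7, 14.9 and 10.4 CPM. In vivo blastocyst libraries 1 and 2 held 4.55 and 6.84 CPM, and the in vivo hatched libraries held 11.9 CPM (unnumbered) and 21.4 CPM (library 2). The in vivo blastocysts were the lowest of the later groups, and each of their libraries lay below every library of the other 3. By mean, in vivo hatched (16.7 ± 6.70 CPM, SD, n = 2), IVF hatched (12.99 ± 2.32, n = 3) and IVF blastocysts (12.5 ± 4.73, n = 3) overlapped in turn, and in vivo blastocysts (5.69 ± 1.62, n = 2) stood apart from the groups on either side in the order.

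AQP11 (gene 100127151, chromosome 9, 12065550 to 12076339) belongs to the aquaporins that lie mostly on membranes inside the cell. Its 4-cell libraries 1 and 2 had 0 counts and library 3 had 34, or 1.02 CPM. IVF blastocyst libraries 1, 2 and 3 held 2.06, 2.44 and 7.24 CPM, and IVF hatched libraries 1, 2 and 3 held 4.02, 4.29 and 2.52 CPM. In vivo blastocyst libraries 1 and 2 held 37.5 and 6.84 CPM, and the in vivo hatched libraries held 28.2 CPM (unnumbered) and 47.4 CPM (library 2). In vivo libraries were thus the high ones, except that in vivo blastocyst library 2 lay just under IVF blastocyst library 3. The means were 37.8 ± 13.6 CPM in in vivo hatched blastocysts (SD, n = 2), 22.2 ± 21.7 in in vivo blastocysts (n = 2), 3.92 ± 2.89 in IVF blastocysts (n = 3), 3.61 ± 0.950 in IVF hatched blastocysts (n = 3) and 0.340 ± 0.588 in 4-cell embryos (n = 3). In this order, only the 4-cell embryos were apart from their neighbour.

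AQP8 (gene 100127152, chromosome 3, 21493564 to 21503778), a water channel of gut and other epithelia, had 0 counts in every library, which at the floor of 3 counts allows at most 0.0646 to 0.0903 CPM per library, with counting error only. AQP7, which also lies on chromosome 10, from 33098746, had 0 counts in every library as well.

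The makeup of the aquaporin messages differed by stage and by origin. The summed FPKM of all aquaporins was 10.6 ± 3.82 in 4-cell embryos (SD, n = 3), and AQP6, which is not a member, gave 75.5% ± 4.58 of it. The sum was 456 ± 105 FPKM in IVF blastocysts (n = 3), 306 ± 83.3 in IVF hatched (n = 3), 239 ± 42.4 in in vivo blastocysts (n = 2) and 341 in in vivo hatched library 2. AQP3 gave 96.0% ± 1.76 of this sum in IVF blastocysts and 94.1% ± 1.54 in IVF hatched blastocysts. In vivo, its share was 79.4% and 94.3% in blastocyst libraries 1 and 2, and 76.9% in hatched library 2. AQP11 gave 0.472% to 1.95% of the sum in the 6 later IVF libraries and 2.95% to 18.5% in the 3 in vivo libraries, so that these ranges did not overlap. AQP9 gave 1.98% to 6.88% of the sum across both origins. These shares were not tested.

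**Figure D3:**
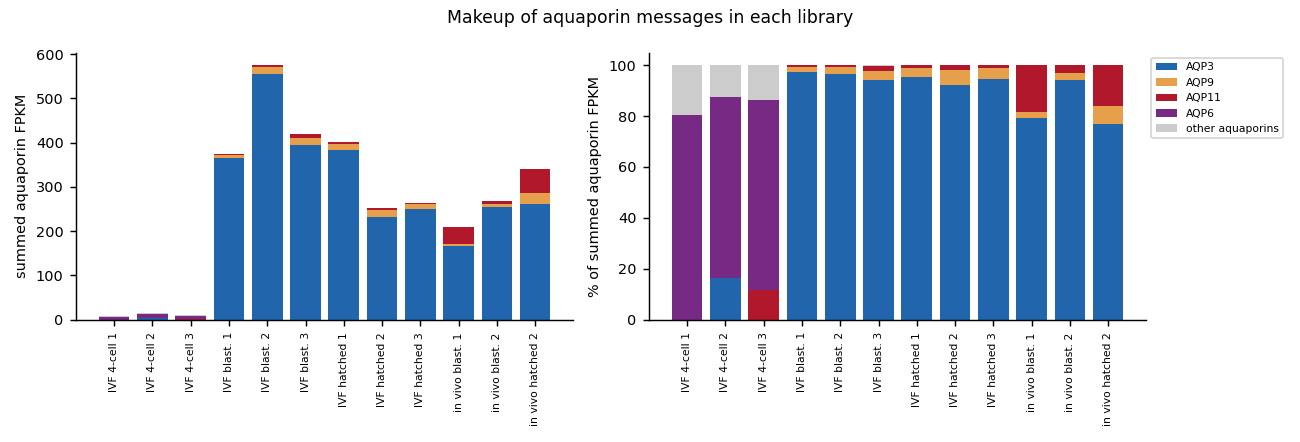
Summed FPKM of all aquaporins (left, y axis) and the percentage of that sum from AQP3, AQP9, AQP11, AQP6 and the other aquaporins (right, y axis), 1 bar per library. AQP3 made up 76.9% to 97.4% of the sum in the blastocyst and hatched libraries, AQP11 took a larger share in vivo than after IVF, and AQP6 led at the 4-cell stage.

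The comparison of IVF blastocysts with IVF 4-cell embryos asked which transport messages rise between these stages. No stage between them was sampled, so a rise cannot be tied to the forming of the cavity. AQP9 and AQP3 rose, and no member was called lower. For AQP9, found in none of the 4-cell libraries, the blastocyst mean of 12.5 CPM was at least 162-fold higher than the floor of 3 counts per library, taken as the mean over the 4-cell libraries (0.0772 CPM), and the adjusted p was 0.00011. AQP3 rose by 9.33 ± 1.80 on the log2 scale (log2 fold change ± SE, adjusted p = 0.00255), with all 3 blastocyst libraries above all 3 of the 4-cell libraries. The adjusted p-values here and below come from edgeR's quasi-likelihood test with Benjamini-Hochberg adjustment over all genes tested, with a threshold of 0.05. Of the 6 members tested, 2 were called, and 56.3% of all 16312 genes tested were called. The ranges were apart for 4 of the 6, against 66.1% of all genes, so neither share sets the members above the genes at large.

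ATP1B3 and AQP11 did not pass that test, and in both 1 library of the 4-cell stage decided the outcome. ATP1B3 had a log2 fold change of 1.53 ± 0.76 (adjusted p = 0.114), and without 4-cell library 1 it was 3.37 ± 0.29 (adjusted p = 4.2e-05). Compared with 4-cell libraries 2 and 3, that library also held more of the hypoblast marker GATA6 (82.0 CPM against 2.13 and 1.23). The same held for the trophectoderm markers TEAD4 (53.2 against 9.89 and 3.90) and TFAP2C (563 against 122 and 87.7). The summed hypoblast markers went the other way, at 188 CPM in library 1 against 282 and 301 CPM. The trophectoderm sum, which includes TEAD4 and TFAP2C, was 638 CPM against 161 and 126, with CDX2 and KRT18 at 0 throughout. The part of these genes in the ATP1B3 level was not tested. AQP11 had a log2 fold change of 3.51 ± 1.71 (adjusted p = 0.108). Without 4-cell library 3, the only one with AQP11 counts, AQP11 passed with an adjusted p of 0.00168, and it also passed narrowly with all 13 libraries in the fit (adjusted p = 0.0493). ATP1B1 (-0.50 ± 0.92) and SLC9A3 (-3.90 ± 2.48) did not pass either, with adjusted p of 0.668 and 0.209.

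Hatched IVF blastocysts against 4-cell embryos, which share those 4-cell libraries, gave like values. AQP9 was at least 168-fold higher (adjusted p = 0.000107), and AQP3 rose by 8.76 ± 1.77 on the log2 scale (adjusted p = 0.00306). These 2 of 6 tested members were called, beside 56.6% of all genes, and 4 of 6 had ranges apart, beside 66.5% of all genes. ATP1B3 was at 1.77 ± 0.76 (adjusted p = 0.074), and at 3.61 ± 0.29 (adjusted p = 3.3e-05) without 4-cell library 1, and it passed narrowly with all 13 libraries in the fit (adjusted p = 0.0454). AQP11 was at 3.39 ± 1.70 (adjusted p = 0.117), and passed without 4-cell library 3 (adjusted p = 0.00173). The AQP3 and AQP9 calls were kept when any 1 library was left out, in both comparisons.

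Blastocysts of both origins were compared to ask how origin goes with these messages before hatching. AQP3 was higher after IVF and AQP11 was lower. The AQP3 mean was 2.06 times the in vivo mean, with a log2 fold change of 1.05 ± 0.28 (adjusted p = 0.0337). The AQP11 mean was 5.66 times higher in vivo, with a log2 fold change of -2.50 ± 0.67 (adjusted p = 0.0371), although its ranges overlapped. These 2 of 6 tested members were called, beside 10.8% of all 15528 genes tested. Ranges were apart for 2 of 6 members, AQP3 and AQP9, beside 44.2% of all genes.

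Both calls rested on few libraries. Without in vivo blastocyst library 1, the one with 37.5 CPM of AQP11, AQP11 was at -0.78 ± 0.63 (adjusted p = 0.569) and AQP3 at 0.86 ± 0.35 (adjusted p = 0.226). AQP11 was also no longer called without IVF blastocyst library 1 or 2 (adjusted p = 0.11 and 0.115), and AQP3 without IVF library 1, 2 or 3 (adjusted p = 0.0503, 0.102 and 0.0507). With all 13 libraries in the fit, neither was called (adjusted p = 0.518 for AQP11 and 0.851 for AQP3).

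AQP9 lay higher in all 3 IVF blastocyst libraries than in both in vivo ones, with a mean 2.20 times the in vivo mean, but did not pass (log2 fold change 1.14 ± 0.42, adjusted p = 0.108). The pump subunit ATP1B3 was at -0.26 ± 0.28 (adjusted p = 0.613), and the sign turned without in vivo library 1 (0.30 ± 0.30). ATP1B1, at 0.17 ± 1.25, was too sparse to place on either side (adjusted p = 0.957). SLC9A3 had 9 counts in all in IVF blastocysts and 6 in vivo, and no direction could be read (adjusted p = 1.0).

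In hatched blastocysts, the question of origin gave 1 called member, AQP11, which was again lower after IVF. Its mean was 10.5 times higher in vivo, the log2 fold change was -3.35 ± 0.69 (adjusted p = 0.0108), and all 3 IVF libraries lay below both in vivo libraries. The 1 call among 6 tested members stands beside 11.8% of all genes, or 1839, where the fit of all 13 libraries called 92. AQP11 was called without each of the other libraries in turn, and was not called without in vivo hatched library 2 (-2.95 ± 0.78, adjusted p = 0.0739) or with all 13 libraries in the fit (adjusted p = 0.365).

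ATP1B3 lay lower in all 3 IVF hatched libraries than in both in vivo ones, with an in vivo mean 1.74 times the IVF mean. It missed the threshold (log2 fold change -0.77 ± 0.28, adjusted p = 0.102) and passed it with no filter on low counts (adjusted p = 0.0247) and by DESeq2's Wald test (adjusted p = 0.0374). Over all genes, these 2 alternatives called 2850 and 2988 instead of 1839. ATP1B3 and AQP11 were the 2 of 6 tested members whose ranges were apart, beside 46.4% of all genes. AQP3 (0.32 ± 0.27, adjusted p = 0.479), AQP9 (-0.33 ± 0.40, adjusted p = 0.657) and ATP1B1 (0.86 ± 1.29, adjusted p = 0.725) did not pass, with ranges that overlapped. SLC9A3, at 0 counts in vivo and 36 counts in all after IVF, was at least 4.11-fold higher by its mean and did not pass (adjusted p = 0.253).

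**Figure D4:**
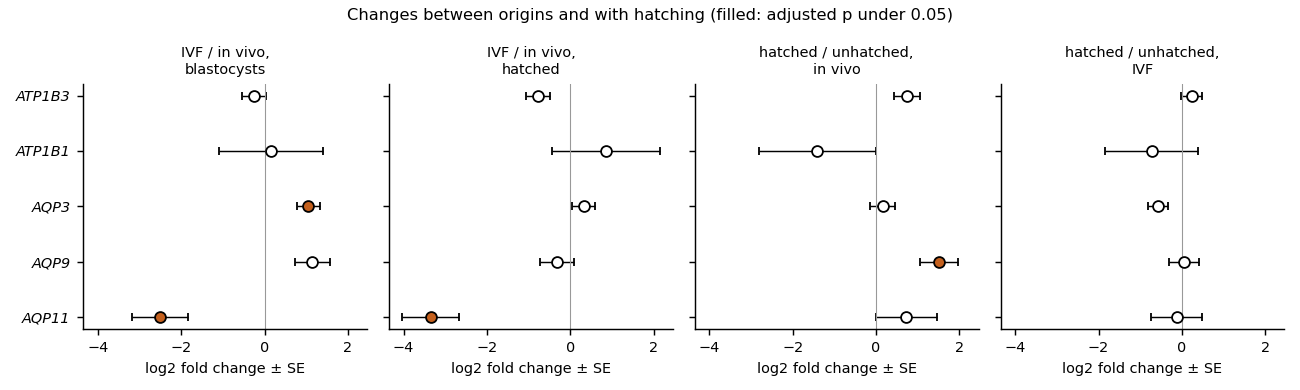
Log2 fold change (x axis, point) with its SE (bar) of ATP1B3, ATP1B1, AQP3, AQP9 and AQP11 between origins (IVF over in vivo, 2 panels) and with hatching (hatched over unhatched, 2 panels). Filled points passed the adjusted p threshold of 0.05: AQP3 and AQP11 in blastocysts, AQP11 in hatched blastocysts and AQP9 with hatching in vivo.

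Hatching was compared within each origin, where a change with hatching cannot be told apart from one with embryo age or collection day. In vivo, AQP9 rose: its mean was 2.93 times higher in hatched blastocysts, with both hatched libraries above both unhatched ones, and the log2 fold change was 1.51 ± 0.46 (adjusted p = 0.0471). This 1 call among 6 tested members stands beside 14.3% of all genes, or 2228, where the fit of all 13 libraries called 101. The ranges were apart for 3 of 6 members, ATP1B3, ATP1B1 and AQP9, beside 53.4% of all genes. AQP9 was no longer called without in vivo blastocyst library 1 (adjusted p = 0.214) or 2 (adjusted p = 0.0661), without in vivo hatched library 2 (1.05 ± 0.50, adjusted p = 0.268) or with all 13 libraries in the fit (adjusted p = 0.332).

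ATP1B3 was at 0.75 ± 0.32 with hatching in vivo (adjusted p = 0.135) and passed without in vivo blastocyst library 1 (1.33 ± 0.34, adjusted p = 0.0396). AQP11 was at 0.73 ± 0.73 (adjusted p = 0.546) and AQP3 at 0.16 ± 0.29 (adjusted p = 0.775). ATP1B1, with 76 counts in the 2 unhatched libraries together and 27 in the hatched ones, was at -1.42 ± 1.40 (adjusted p = 0.539). SLC9A3 was at -4.59 ± 3.34 from 6 counts in all (adjusted p = 0.385).

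Among the IVF embryos, no member passed between hatched and unhatched blastocysts by edgeR's quasi-likelihood test, where 0.0451% of all genes, 7 in number, were called. At an unadjusted p under 0.05 there was 1 of 6 members, AQP3, beside 3.83% of all genes, and DESeq2's Wald test called 0 members, beside 49 genes in all. AQP3 was at -0.57 ± 0.24, ATP1B3 at 0.24 ± 0.26, AQP9 at 0.04 ± 0.36 and AQP11 at -0.13 ± 0.61, all with an adjusted p of 1.0. The ranges overlapped for all 6 tested members, beside 10.7% of all genes with ranges apart.

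The change with hatching after IVF minus that in vivo was tested itself. No member passed by edgeR's quasi-likelihood test, beside 4.71% of all genes. DESeq2's Wald test called 0 members, beside 1879 genes in all. In edgeR's test 1 of 6 members, AQP9, had an unadjusted p under 0.05, beside 21.9% of all genes. AQP9 was at -1.47 ± 0.58 (adjusted p = 0.169), AQP3 at -0.73 ± 0.38 (adjusted p = 0.283), AQP11 at -0.85 ± 0.95 (adjusted p = 0.653) and ATP1B3 at -0.51 ± 0.41 (adjusted p = 0.493). A hatching change of AQP9 that differs between origins was therefore not shown.

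The summed markers of the hypoblast, the layer that comes to line the cavity, were highest in the in vivo hatched libraries. That group also had the highest means of ATP1B3, AQP9 and AQP11. GATA6, a marker of this list, did not follow the sum. Its mean was 149 CPM in in vivo hatched blastocysts, 127 in in vivo blastocysts, 171 in IVF blastocysts and 154 in IVF hatched blastocysts. The summed level of 11 hypoblast markers was 426 CPM in the unnumbered library and 1365 CPM in library 2, against 231 to 294 CPM in in vivo blastocysts, 249 to 254 CPM in IVF blastocysts and 180 to 258 CPM in IVF hatched blastocysts. All 11 stood at 1 CPM or more in both in vivo hatched libraries, as did 9 of 11 in blastocysts of either origin and 8 of 11 in IVF hatched blastocysts, and none was at 0 throughout a group of these stages. In vivo hatched library 2 had the higher AQP9 and AQP11 of the pair and the lower ATP1B3. The order of single libraries was not the same throughout: in vivo blastocyst library 1, with a hypoblast sum of 231 CPM, held more AQP11 than the unnumbered library (37.5 against 28.2 CPM), and AQP9 in the unnumbered library (11.9 CPM) lay below 4 IVF libraries (13.7 to 15.3 CPM). The part of these cells in the member levels was not tested. Summed markers of blood and immune cells did not exceed 7.19 CPM, and those of stroma and vessels 54.4 CPM, in the blastocyst and hatched libraries. Those of cumulus and granulosa cells were 51.1 to 161 CPM in IVF hatched, 53.3 to 57.3 in in vivo hatched, 4.88 to 39.7 in IVF blastocysts and 10.3 to 10.99 in in vivo blastocysts, with STAR, a gene of cholesterol transport, reaching 159.6 CPM in IVF hatched embryos, while FSHR and INHA were at 0 in every IVF library of these stages. The 7 epiblast markers found summed to 652 to 1107 CPM in vivo and 1120 to 1859.8 CPM after IVF at these stages. Of these markers, POU5F1 and TDGF1 had higher means after IVF at both stages. The means of SOX2, SALL4, DPPA2 and LIN28A were lower after IVF at both stages, and that of DNMT3B was lower in hatched blastocysts only. The 6 oviduct and uterine markers summed to 6.28 to 22.6 CPM and the 6 sperm markers to at most 0.162 CPM. The part of these in the results was not tested.

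The FXYD regulators of the pump changed against the 4-cell stage. Of 3 FXYD regulators tested, none passed between origins or with hatching, and against the 4-cell stage FXYD4 (1.51 ± 0.35, adjusted p = 0.0059) and FXYD3 (at least 25.3-fold) rose and FXYD6 fell by 7.66 ± 0.88 on the log2 scale (adjusted p = 0.000202) in IVF blastocysts, where 56.3% of all genes passed in either direction. FXYD4 made up 96.0% to 99.6% of the summed FXYD FPKM in the 9 later libraries, and FXYD6 61.2% to 73.7% of it at the 4-cell stage. AQP6 was the 1 aquaporin outside the members tested in that comparison, and it fell by 5.75 ± 1.77 on the log2 scale (adjusted p = 0.0212).

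Of the other sodium-proton exchangers and the scaffold proteins that hold them at the membrane, 4 of 11 tested rose and 4 fell from the 4-cell stage to the IVF blastocyst, where 25.7% of all genes rose and 30.6% fell. EZR, which ties membrane proteins to the cytoskeleton, rose by 3.96 ± 0.31 on the log2 scale (adjusted p = 3.5e-05), and SLC9A3R1, a scaffold that binds SLC9A3 among others, rose by 3.13 ± 0.54 (adjusted p = 0.00151). SLC9A2, an exchanger of epithelia, was at least 28.6-fold higher. SLC9A9, an exchanger of endosomes, fell by 9.11 ± 1.36 on the log2 scale (adjusted p = 0.00153). None of those tested passed between origins at either stage, and EZR alone passed with hatching in vivo (0.65 ± 0.20, adjusted p = 0.0478), a call lost whenever 1 library was left out.

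Of 16 other ion transporters tested, 3 rose and 4 fell from the 4-cell stage to the IVF blastocyst, beside the same 25.7% and 30.6% of all genes. SCNN1A, a subunit of the epithelial sodium channel, rose by 6.08 ± 1.16 on the log2 scale (adjusted p = 0.00235). With hatching in vivo, 4 of 16 rose and 0 fell, beside 6.96% and 7.39% of all genes, with a median log2 fold change of 0.76, where all genes had -0.0094. SCNN1B and SCNN1G, further subunits of that channel, were at 6.89 ± 1.06 (adjusted p = 0.0025) and 4.01 ± 0.78 (adjusted p = 0.00725), and the chloride cotransporter SLC12A2 was at 3.20 ± 0.70 (adjusted p = 0.0121). SCNN1B was higher in IVF than in in vivo blastocysts (4.86 ± 0.97, adjusted p = 0.0122), and SLC12A2 was lower in IVF than in in vivo hatched blastocysts (-3.02 ± 0.59, adjusted p = 0.0088). With all 13 libraries in the fit none of these 5 differences passed, with adjusted p of 0.152 for SCNN1B, 0.356 for SCNN1G and 0.14 for SLC12A2 with hatching in vivo, 0.327 for SCNN1B between blastocyst origins and 0.108 for SLC12A2 between hatched origins. Over all genes, that fit called 101 with hatching in vivo, 7 between blastocyst origins and 92 between hatched origins. SLC12A2 was also no longer called without in vivo hatched library 2, between hatched origins (adjusted p = 0.105) or with hatching in vivo (adjusted p = 0.0833), and with hatching without in vivo blastocyst library 2 (adjusted p = 0.0541).

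Over the 6 tested members, the median log2 fold change was 2.52 in IVF blastocysts against 4-cell embryos, where all genes had a median of -0.23. It was 0.087 between IVF and in vivo blastocysts, where all genes had 0.048, and -0.0025 between IVF and in vivo hatched blastocysts, where all genes had 0.038. With hatching it was 0.44 in vivo, where all genes had -0.0094, and -0.041 after IVF, where all genes had -0.0012. Between blastocyst origins, AQP3 and AQP11 passed in opposite directions, and both calls rested on few libraries. The members were chosen with earlier results of these data known, so these medians describe them and are no test.

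The genes whose pattern was most like that of a member were listed by the Pearson correlation of log2(CPM + 1) over the 13 libraries, among 10510 genes with a mean of at least 5 CPM in some group, as a description in which the step from 4-cell to later stages is shared by all. For ATP1B3 they were CACYBP (r = 0.985), RPL13 (r = 0.981), a ribosomal protein gene for which reads may be shared with similar copies, and NOC4L (r = 0.978). CAPZA2 (r = 0.993), TAX1BP3 (r = 0.992) and UPP1 (r = 0.992) were closest to AQP3. PFKL (r = 0.987), SLC12A4 (r = 0.983) and EREG (r = 0.98) were closest to AQP9. For AQP11 they were GJB1 (r = 0.964), CES1 (r = 0.963) and SLC7A9 (r = 0.963), and SLC7A9 averaged 460.3 CPM in in vivo hatched, 182 in in vivo blastocysts, 22.0 in IVF hatched and 16.6 in IVF blastocysts.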

How the data were processed

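Read counts, FPKM and TPM of 13 libraries came as 1 table deposited by the authors, with genes of the Sscrofa11.1 build. The deposited counts are whole numbers per gene, not normalised, and the deposited FPKM values are scaled by gene length and library size. Per the labels' protocols, RNA was extracted with TRIzol, enriched on oligo(dT) beads and read in pairs on an Illumina HiSeq. Bowtie2, fastp 0.18.0, HISAT2, RSEM and StringTie 1.3.1 are listed in the submitters' processing notes without their roles. The making of the counts, the use of strand and the handling of reads that fit near-identical genes are not given in the sources used here. Of 39 value columns 14 were not used, the TPM columns and the FPKM column of an in vivo hatched library whose count column has no number. Gene positions come from RefSeq's table of the same build, which matched 28208 of 28232 genes.

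Counts were tested with edgeR 4.0.16 (R 4.3.3; TMM, filterByExpr, quasi-likelihood, Benjamini-Hochberg), in 1 fit of the 10 blastocyst and hatched libraries (15528 genes) and 1 fit of the 9 IVF libraries (16312 genes). SE is the log2 fold change over the root of the F value. AQP8 did not pass the filter. Alternatives were DESeq2 size factors, no filter on low counts, DESeq2 1.42.0's Wald test, all 13 libraries in 1 fit, the replicate number as a block and leaving out each library. Named genes are all members, up to 4 other called genes per transport list and comparison by smallest p, and the 3 genes most like each member. Some genes that this rule names are not reported here. The members and all lists were chosen with earlier results of these data known. On simulated counts, the fit of blastocysts by origin recovered 5 of 69 changes of 2-fold, 37 of 62 of 4-fold and 64 of 69 of 8-fold. The fit against the 4-cell stage recovered 10 of 68, 58 of 64 and 68 of 68. These counts were simulated with the same dispersion of 0.1 in every library. The wider spread of the real 4-cell libraries was not simulated, so recovery against that stage may be lower than given. No 2 libraries of a group matched within counting error, since the ratio of chi-square to degrees of freedom was 72.5 or more for each pair. Floors cover counting error only.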

Additional observations from a re-analysis of the deposited data

Results flagged for a closer look

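The change with hatching differed between origins, by a test of the difference itself, for 3 of the 16 other ion transporters tested, all 3 with a negative difference, where 4.71% of all genes passed and 1.93% passed with a negative difference. SCNN1B, a subunit of the epithelial sodium channel, had a difference of -6.77 ± 1.19 (log2 change with hatching after IVF minus that in vivo, adjusted p = 0.0126). Its in vivo libraries rose from 0.290 and 0 CPM to 17.6 CPM (unnumbered) and 17.9 CPM (library 2), and the IVF libraries held 2.69, 6.39 and 3.55 CPM before and 6.45, 2.40 and 4.99 CPM after hatching. SLC12A2 had a difference of -3.90 ± 0.86 (adjusted p = 0.0293), with 1.68 and 0.889 CPM before and 7.89 and 16.4 CPM after hatching in vivo. SCNN1G had a difference of -3.84 ± 0.93 (adjusted p = 0.0405), with 3.01 and 0.754 CPM before and 34.6 and 27.8 CPM after hatching in vivo. In the IVF libraries it stood at 4.62, 10.7 and 3.33 CPM before and 11.2, 3.97 and 5.96 CPM after hatching. The fit of all 13 libraries called 1 gene in all for this difference, against 732 in the fit of the 10 blastocyst and hatched libraries. SCNN1B was called in all 10 fits that left out 1 library, SLC12A2 in 4 of 10 and SCNN1G in 3 of 10, and none of the 3 was called with all 13 libraries in the fit (adjusted p = 0.375, 0.297 and 0.665). With the replicate number as a block, which left 1 in vivo hatched library, SCNN1B was at -7.57 and SCNN1G at -4.27, and neither was called. The hypoblast marker sum was 426 and 1365 CPM in the same in vivo hatched libraries against at most 294 CPM in the other blastocyst and hatched libraries. Its part in the differences of these 3 transporters was not tested.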

How the results depend on the processing

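The number of members called moved with the fit, as did the number of all genes called. With all 13 libraries in the fit the number of members called was 0 instead of 2 between IVF and in vivo blastocysts, 0 instead of 1 between IVF and in vivo hatched blastocysts and 0 instead of 1 with hatching in vivo. Over all genes, that fit called 7 instead of 1681, 92 instead of 1839 and 101 instead of 2228 in the same order. With no filter on low counts and by DESeq2's Wald test, 2 members were called between hatched origins, ATP1B3 being the added one. Over all genes, these called 2850 and 2988 instead of 1839. By DESeq2's Wald test 1 member instead of 2 was called in each comparison with 4-cell embryos, where that tool gave AQP3 no adjusted p. Over all genes it called 10033 instead of 9185 in IVF blastocysts and 10096 instead of 9230 in IVF hatched blastocysts. Leaving out 1 library gave 0 to 2 members between blastocyst origins, 0 to 2 between hatched origins and 0 to 2 with hatching in vivo. ATP1B1 was the added call without the unnumbered library, which left 1 in vivo hatched library, with 0 counts of it, assumed to vary like the other groups. No alternative called a member with hatching after IVF or for the difference of hatching changes. Replicate numbers were shared between groups, but same-numbered libraries did not deviate together (correlations from -0.248 to 0.0429), so they were not taken as pairs. With the replicate block, and the unnumbered library left out, 0 members were called between blastocyst origins (AQP3 adjusted p = 0.0561, AQP11 0.0976) and 0 with hatching in vivo (AQP9 adjusted p = 0.106), and AQP11 with hatching after IVF turned to 0.0872. The block made ATP1B3 pass in IVF hatched blastocysts against 4-cell embryos (2.31, adjusted p = 0.0457), as did the fit of all 13 libraries (1.80, adjusted p = 0.0454).

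Directions turned only for values that were not called. Between blastocyst origins, SLC9A3 was at -0.0205 with DESeq2 size factors and -0.0086 with all 13 libraries. Leaving out 1 library gave log2 fold changes of ATP1B1 from -0.0512 to 0.361, of ATP1B3 from -0.654 to 0.302 and of SLC9A3 from -4.59 to 4.59 there. Between hatched origins ATP1B1 ran from -0.16 to 7.71 and AQP9 from -0.68 to 0.134. With hatching in vivo AQP3 ran from -0.00636 to 0.383 and AQP11 from -0.033 to 2.47, and after IVF AQP9 ran from -0.244 to 0.216 and AQP11 from -0.437 to 0.677. The difference of hatching changes of ATP1B1 ran from -0.32 to 7.54. Against 4-cell embryos, ATP1B1 ran from -0.964 to 0.49 in IVF blastocysts and SLC9A3 from -2.37 to 2.02 in IVF hatched blastocysts. SLC9A3 with hatching in vivo had no counts left without in vivo blastocyst library 2 and gave no value. The cause of these changes was not tested.

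Over all genes, the number called between blastocyst origins was 1681, and 2749 with no filter, 2900 by DESeq2, 7 with all 13 libraries, 1028 with the block and as few as 320 without 1 library. Between hatched origins it was 1839, and 2850, 2988, 92, 1145 and as few as 513 in the same order. With hatching in vivo it was 2228, and 3516 by DESeq2, 101 with all 13 libraries, 1146 with the block and as few as 1064 without 1 library. With hatching after IVF it was 7, and 162 with no filter, 49 by DESeq2 and 0 with all 13 libraries. For the difference of hatching changes it was 732, and 1855 with no filter, 1879 by DESeq2, 1 with all 13 libraries, 347 with the block and as few as 333 without 1 library. Depth limits ATP1B1 and SLC9A3, with at most 137 counts in a library, and AQP8.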

Other observations

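CFTR, the chloride channel of secreting epithelia, had 0 counts in both in vivo hatched libraries and 0.0591 to 1.84 CPM in IVF hatched libraries, at least 11.9-fold higher by the mean (adjusted p = 0.0441). IVF hatched library 1 had 2 counts, under the floor of 3. CFTR was no longer called without IVF hatched library 2 or 3 (adjusted p = 0.084 and 0.0995) or with all 13 libraries in the fit (adjusted p = 0.209). Leaving out 1 in vivo hatched library gave log2 fold changes of 8.19 and 8.16.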
